A study of Homo sapiens with 29 samples.

Results

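The windows described here lie in long non-coding RNA (lncRNA) genes that are named for their place beside other genes or for lying between them. They were taken from 3 lists of 500-base windows in which RNA recovered with hnRNPA1 was called as enriched, and were chosen by gene symbol alone: a symbol that begins with LINC, or that ends in -AS and a digit, -DT, -IT and a digit or -OT and a digit. The rule found 509 of the 16198 listed windows, in 352 genes. Of these, 406 of 13007 windows were in the whole-cell list, 62 of 1519 in the cytosolic list and 41 of 1672 in the mitochondrial list.

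All samples were HEK293 cells, a line derived from human embryonic kidney. RNA immunoprecipitation (RIP), in which an antibody pulls a protein out of a lysate and the RNA that comes with it is sequenced, was done on whole-cell lysate (3 hnRNPA1 antibody and 3 normal IgG samples), on cytosol (4 and 4) and on mitochondria (4 hnRNPA1 and 3 IgG), without any treatment of the cells. The other samples were total RNA of cells given control siRNA (4) or hnRNPA1 siRNA (4). The labels name neither a different siRNA against hnRNPA1 nor a rescue, and do not say whether samples of one group came from separate cultures, so the p-values rest on variation among these libraries that may be purely technical. Each compartment has 1 list with no value per sample, so nothing about the windows has a replicate error, and the reads behind a window are unknown. The protocol text calls the RIP RNA highly degraded and mentions 1 library of poor quality without naming it.

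hnRNPA1 is an abundant nuclear protein that binds single-stranded RNA, prefers UAGG-like motifs, takes part in splice-site choice and shuttles to the cytoplasm. An antisense RNA (-AS) is transcribed from the strand opposite a neighbouring gene, a divergent transcript (-DT) starts near the promoter of a neighbouring gene and runs away from it, intronic (-IT) and overlapping (-OT) transcripts lie within or across a host gene, and LINC genes lie between protein-coding genes. Many such RNAs are made at low levels and stay in the nucleus. A few are known to act on the gene beside them. A listed window shows recovery with the antibody and not direct contact with the protein.

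Promoter sequence is shown for 5 genes whose listed window reached the region from 250 bases before to 50 bases after the gene's start in RefSeq (GRCh38.p14), as the sequence around the annotated start where the window touched it. A window does not place the reads within its 500 bases. The sequences run 5′ to 3′ on the gene's own strand, and capitals mark TAGG, the DNA form of the motif. CCDC18-AS1 (chr1:93345762-93346061, minus strand) lay whole within its whole-cell window. LINC00987 (chr12:9239823-9240122, plus strand) shared 119 bases with its whole-cell window. BTG1-DT (chr12:92145835-92146134, plus strand) shared 239 bases with a window listed in both whole cells and mitochondria. IRS4-AS1 (chrX:108736290-108736589, plus strand) shared 222 bases with its mitochondrial window, and LINC03057 (chr17:48639281-48639580, minus strand) shared 157 bases with its cytosolic window.
CCDC18-AS1: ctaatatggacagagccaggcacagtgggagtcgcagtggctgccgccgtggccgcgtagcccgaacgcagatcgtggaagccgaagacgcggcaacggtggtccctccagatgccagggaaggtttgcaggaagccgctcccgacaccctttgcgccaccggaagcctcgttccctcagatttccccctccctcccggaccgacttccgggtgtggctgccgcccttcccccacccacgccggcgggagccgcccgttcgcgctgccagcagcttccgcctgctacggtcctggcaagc
LINC00987: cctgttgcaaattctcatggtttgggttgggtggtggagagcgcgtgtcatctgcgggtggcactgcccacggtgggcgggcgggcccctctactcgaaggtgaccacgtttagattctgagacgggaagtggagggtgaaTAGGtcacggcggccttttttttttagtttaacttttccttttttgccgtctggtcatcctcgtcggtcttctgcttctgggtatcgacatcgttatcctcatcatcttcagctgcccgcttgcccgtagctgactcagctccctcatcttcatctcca
BTG1-DT: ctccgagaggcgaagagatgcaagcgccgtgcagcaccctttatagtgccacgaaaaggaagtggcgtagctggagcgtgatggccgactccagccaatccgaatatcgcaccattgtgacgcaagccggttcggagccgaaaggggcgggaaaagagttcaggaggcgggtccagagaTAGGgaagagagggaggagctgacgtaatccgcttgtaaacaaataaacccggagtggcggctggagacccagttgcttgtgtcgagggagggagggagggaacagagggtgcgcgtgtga
IRS4-AS1: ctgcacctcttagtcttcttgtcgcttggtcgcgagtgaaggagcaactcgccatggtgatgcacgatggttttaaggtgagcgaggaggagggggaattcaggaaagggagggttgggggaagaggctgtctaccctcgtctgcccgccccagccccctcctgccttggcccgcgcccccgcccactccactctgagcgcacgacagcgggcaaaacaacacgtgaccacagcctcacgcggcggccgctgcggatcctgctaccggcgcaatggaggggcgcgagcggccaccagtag
LINC03057: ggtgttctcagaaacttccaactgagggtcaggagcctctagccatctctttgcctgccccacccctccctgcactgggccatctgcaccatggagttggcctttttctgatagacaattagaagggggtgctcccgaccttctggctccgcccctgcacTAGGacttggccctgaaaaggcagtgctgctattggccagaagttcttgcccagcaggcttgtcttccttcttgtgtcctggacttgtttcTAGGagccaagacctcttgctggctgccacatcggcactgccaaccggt

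TAGG was present in the promoters of LINC00987, BTG1-DT and LINC03057 and in neither CCDC18-AS1 nor IRS4-AS1. Only the TAGG of BTG1-DT lay inside the listed window, and those of LINC00987 and LINC03057 lay outside it. The TAGG of BTG1-DT was at position -71 from the annotated start, and the window ended before that start. This TAGG is thus not part of the annotated BTG1-DT RNA, and whether the recovered RNA held it was not tested. The shares of promoters with the motif and its longer forms were not tested, and they differed in both directions. Searched on the transcribed strand, TAGG was held by 46.4% of the 302 promoters of lncRNA genes with a window and by 49.9% of all 35116 promoters in the table. The longer TAGGG, each match of which also holds TAGG, was found in 15.6% against 18.6%. TAGGGA was found in 2.65% against 5.66% and TAGGGT in 4.64% against 3.51%. On either strand TAGG was found in 67.9% against 71.5%, TAGGG in 33.8% against 32.8%, TAGGGA in 9.27% against 10.7% and TAGGGT in 10.3% against 6.71%. In the 61 promoters touched by a window of their gene, TAGG was found on the transcribed strand in 47.5%, TAGGG in 11 of the 61, TAGGGA in 8.20% and TAGGGT in 1.64%. On either strand these touched promoters held TAGG in 72.1%, TAGGG in 39.3%, TAGGGA in 16.4% and TAGGGT in 6.56%. These are shares of a 300-base region and say nothing of the windows that lay further into the genes. The transcribed strand means the gene's own strand here. Most of the region lies before the annotated start, so a match in it need not be part of the annotated RNA.

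One window covered a microRNA. The whole-cell window of LINC01138 at chr1:148334390-148334889 on the minus strand, with a signal value of 1.93, held hsa-miR-5087. Its mature sequence from RefSeq is shown with the seed, bases 2 to 8, in capitals.
hsa-miR-5087: gGGUUUGUagcuuugcuggcaug

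Antisense genes supplied most of the windows in every list. They held 307 of the 406 whole-cell windows (75.6%), 37 of the 62 cytosolic windows (59.7%) and 36 of the 41 mitochondrial windows (87.8%). Divergent transcripts held 48, 11 and 4 windows, and LINC genes 49, 11 and 1. The LINC share was 12.1% in whole cells, 17.7% in the cytosol and 2.44% in mitochondria. The single mitochondrial LINC window was in LINC01829. Intronic transcripts appeared in the cytosolic list alone, with 1 window each in SMAD9-IT1 and ITCH-IT1, and overlapping transcripts gave 2 whole-cell windows, in ANXA2R-OT1 and WDR7-OT1, and 1 cytosolic window, in TGFB2-OT1. As a share of all windows, the lncRNA windows made up 3.12% of the whole-cell list, 4.08% of the cytosolic list and 2.45% of the mitochondrial list. With 1 list each, these shares could not be tested against each other.

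**Figure D1:**
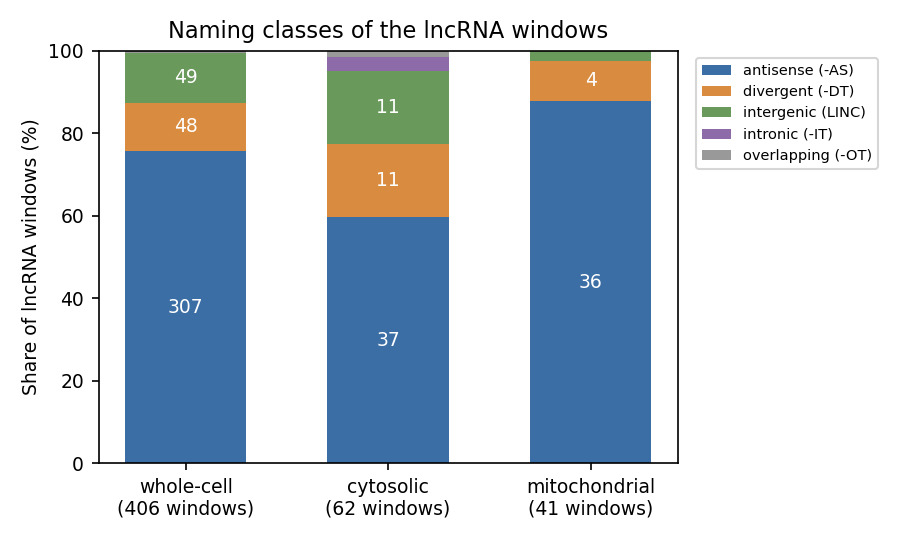
Share of the lncRNA windows of each list (vertical axis, %) in each naming class, with the number of windows printed in the larger parts. Antisense genes fill most of each bar, and the LINC part is smallest in the mitochondrial list, with 1 of 41 windows.

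The lncRNA windows had signal values much like those of all other listed windows. The signal value is the authors' own score for each window, whose scale and log base no source used here gives. Its median was 1.24 for lncRNA windows and 1.22 for the others in whole cells, 1.23 and 1.22 in the cytosol, and 1.23 and 1.25 in mitochondria. The highest lncRNA values were 3.98, 2.90 and 3.22, and the highest other values 4.68, 2.90 and 4.15. The lowest lncRNA values were 0.7, 0.71 and 0.79, and the lowest other value was 0.7 in each list. The medians thus compare only windows at or above that floor. The q-values told the compartments apart more than the signal did. A q of at most 0.005 was listed for 71.2% of the whole-cell lncRNA windows and 71.5% of the others, for 61.0% and 55.1% in mitochondria, and for 22.6% and 41.2% in the cytosol. Cytosolic lncRNA windows thus had weaker q-values than the other cytosolic windows at the same median signal.

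**Figure D2:**
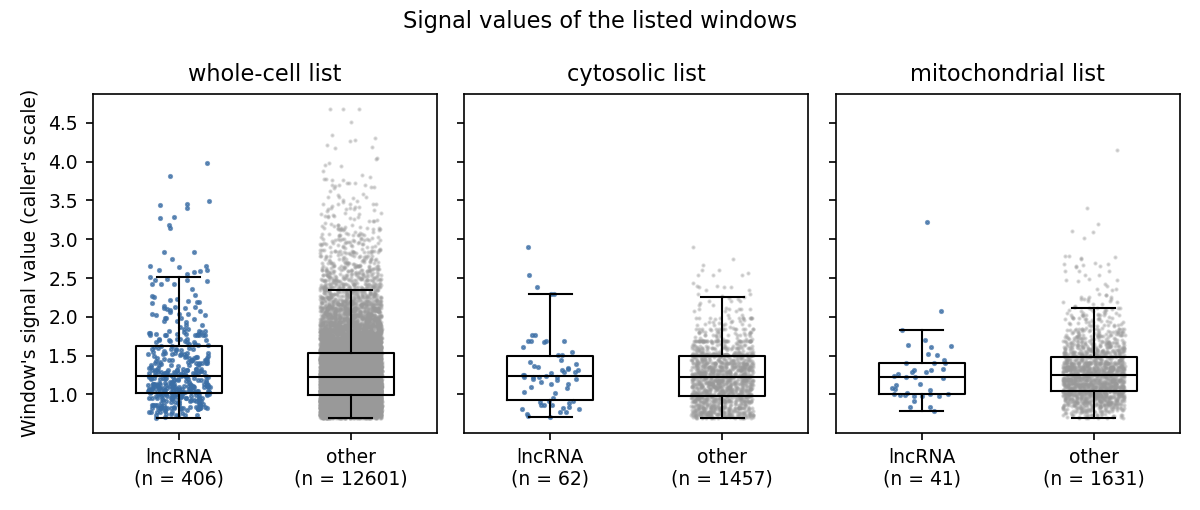
Signal value of every listed window (vertical axis, the caller's scale) for lncRNA windows and all others, by list. Boxes span the quartiles with the median as a line, and whiskers reach to the farthest value within 1.5 times the box height. The medians lie between 1.22 and 1.25 in all 6 groups.

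In the whole-cell list the highest signal was in RNF185-AS1, antisense to the ubiquitin ligase gene RNF185, at 3.98 (chr22:31205265-31205764, minus strand). LINC00486 followed at 3.81 (chr2:32911860-32912359, plus strand), then LINC00324 at 3.49 (chr17:8220643-8221142, minus strand). CCDC18-AS1, whose promoter is shown above, had 3.46 (chr1:93345687-93346186, minus strand). This window shared 279 bases with a whole-cell window of DR1, a repressor of transcription by RNA polymerase II, on the other strand. PNN-AS1, antisense to the gene of the splicing-associated protein pinin, had 3.44 (chr14:39174886-39175385, minus strand). LINC00324 and CCDC18-AS1 were in the siRNA gene table, and the other 3 were not.

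The cytosolic list was led by GJD2-DT, divergent from the gap junction gene GJD2, at 2.90 (chr15:34791085-34791584, plus strand). Next came LINC01123 at 2.54 (chr2:109987564-109988063, plus strand) and TSPEAR-AS1 at 2.38. AFTPH-DT and SND1-DT, divergent from a vesicle-trafficking gene and from an RNA-binding nuclease gene, both had 2.30. The q-values differed widely among the 5. They were 3.11e-05 for GJD2-DT, 0.000751 for LINC01123, 0.0146 for AFTPH-DT, 0.0417 for TSPEAR-AS1 and 0.0471 for SND1-DT.

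In mitochondria COL4A2-AS2, antisense to a collagen IV gene, stood apart at 3.22 (chr13:110458397-110458896, minus strand). IRS4-AS1, antisense to the insulin receptor substrate gene IRS4, was next at 2.07 (chrX:108736012-108736511, plus strand). PAXBP1-AS1 had 1.83, UBOX5-AS1 1.70 and CRTC3-AS1 1.64. None of the mitochondrial lncRNA windows lay on the mitochondrial chromosome, which follows from the naming rule, since it does not select that chromosome's genes. These windows came from nuclear genes, and how much nuclear or cytosolic RNA the mitochondrial fraction held was not tested.

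Most genes had a single window, and a few were covered repeatedly. A single window was listed for 230 of 295 genes in whole cells, 55 of 58 in the cytosol and 29 of 35 in mitochondria. OBI1-AS1 and ENTPD1-AS1 each had 7 whole-cell windows. Those of OBI1-AS1 lay between chr13:78600190 and chr13:78614689 with signal values from 0.98 to 1.38. Of these, 3 faced a window of POU4F1, a neuronal homeobox transcription factor, on the other strand. The centres of the 7 windows lay from 545584 to 559584 bases past the nearest start of OBI1-AS1 in RefSeq. OBI1-AS1 was not in the siRNA gene table. The windows of ENTPD1-AS1 had signal values from 0.80 to 1.40. They faced windows of ENTPD1, an enzyme that degrades extracellular ATP, of CC2D2B and of the cyclin gene CCNJ. HOXA-AS3 had 5 windows. RSL1D1-DT, LANCL1-AS1, TMEM147-AS1, HOXB-AS3, ZKSCAN7-AS1, LINC01128 and TUBA1B-AS1 had 4 each.

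Antisense genes of the HOX clusters, which hold the transcription factors that pattern the body axis, were listed in whole cells and in neither other compartment: 5 genes with 12 windows. The whole-cell list held 406 of all 509 lncRNA windows, and the part of list length in this was not tested. The highest signal among the HOX antisense genes was 1.79, in HOXA-AS3. Transcripts named for zinc finger genes, a large family of DNA-binding proteins, held 30 windows in 20 genes, of which 26 windows in 17 genes were whole-cell.

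The windows sat near the start of the gene more often in whole cells than in the other lists. A start in RefSeq was found for the genes of 390 windows. The centre of the window lay within 500 bases of that start for 26.2% of whole-cell windows, 10.6% of cytosolic windows and 5.88% of mitochondrial windows. The median distance, with distances before the start counted as negative, was 3789 bases, 5663 bases and 9700 bases. At over 10000 bases past the start, in the direction of transcription, were 116 of 309 whole-cell, 14 of 47 cytosolic and 16 of 34 mitochondrial windows. By this measure the cytosolic share was thus the lowest. Windows equally far before the start are not in this count, such as the mitochondrial LINC window at -182288 bases. The lists differ in length and in the genes they hold, and the difference in distance was not tested.

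Few lncRNA windows were listed in more than 1 compartment. Of the 352 genes, 318 had windows in 1 list, 32 in 2 lists and 2, CRTC3-AS1 and PRC1-AS1, in all 3. Whole cells and mitochondria shared 19 lncRNA genes, which were 6.44% of the whole-cell and 54.3% of the mitochondrial lncRNA genes, where over all genes the shares were 11.9% and 70.7%. Whole cells and cytosol shared 13, or 4.41% and 22.4%, where over all genes the shares were 7.23% and 38.0%. Cytosol and mitochondria shared 6, or 10.3% and 17.1%, against 10.3% and 11.7% over all genes.

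Sharing of the window itself was rarer than sharing of the gene, for lncRNA windows and over all windows. Whole cells and cytosol shared 1.61% of the cytosolic lncRNA windows, against 6.45% over all cytosolic windows. Whole cells and mitochondria shared 14.6% of the mitochondrial lncRNA windows against 9.99% over all. Cytosol and mitochondria shared 7.32% of the mitochondrial ones against 2.87%. These differences rest on few windows and were not tested. LINC00324 was the 1 window listed in both whole cells and cytosol, with a signal of 3.49 in the first and 1.35 in the second. Whole cells and mitochondria shared 6 windows. BTG1-DT, divergent from the antiproliferative gene BTG1, had 2.11 in whole cells and 1.51 in mitochondria at chr12:92145574-92146073. EPCAM-DT, divergent from an epithelial adhesion gene, had 2.60 and 1.08. The other 4 were LINC01829 (1.49 and 1.41), DNAJC9-AS1 (1.16 and 1.29), PPP1R15B-AS1 (1.14 and 1.62) and PRC1-AS1 (0.87 and 1.41). Cytosol and mitochondria shared 3, in CRTC3-AS1 (0.87 and 1.64), DIP2C-AS1 (0.87 and 1.23) and TDRD6-AS1 (1.39 and 1.07). CRTC3-AS1 is antisense to a CREB coactivator gene, and PRC1-AS1 to the gene of a protein of the central spindle. Signal values of different lists were not normalised to each other, so the pairs are given side by side.

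LncRNA windows had a listed window on the opposite strand more often than other windows did. In the whole-cell list 171 of 406 lncRNA windows (42.1%) overlapped a listed window on the other strand, against 12.3% of all other windows. The shares were 16.1% against 3.57% in the cytosol and 39.0% against 9.38% in mitochondria. An antisense gene has a gene on the other strand by definition, and the part of this in the difference was not tested. Among whole-cell windows the share was 47.2% in antisense genes, lower in divergent genes (12 of 48) and 28.6% in LINC genes. The library kit keeps the strand, but no source used here says whether reads were counted by strand, and without that the reads of a gene and of its antisense partner cannot be told apart.

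Where the windows nearly coincided, the lncRNA side was not the consistently stronger one. In whole cells 71 pairs of windows overlapped by at least 400 bases on opposite strands. The median signal was 1.14 on the lncRNA strand and 1.30 on the other, and the lncRNA window was higher in 30 pairs, lower in 39 and equal in 2. In the cytosol the lncRNA window was lower in all 3 such pairs (median 0.87 against 1.33). In mitochondria it was lower in 5 of 6 pairs and higher in 1 (median 0.93 against 1.10). Across the 71 whole-cell pairs the signals had a Pearson correlation of 0.463, given as a description because each pair shares its position and its library.

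The genes that the lncRNAs are named for were often listed too. Of the 248 whole-cell lncRNA genes whose named partner could be matched, 153 (61.7%) had a partner with a window in the same list. In mitochondria this held for 12 of 34 (35.3%), and in the cytosol for 6 of 47 (12.8%). Among partners tested in the siRNA experiment, 66.1% had a whole-cell window. This compares with 40.3% of the 14494 tested genes outside the lncRNA names, a group that includes the partners. The mitochondrial shares were 37.9% and 6.65%, and the cytosolic shares 12.5% and 5.28%. These shares were not matched on expression. The partner's windows were not always the ones facing the lncRNA: windows of the pair overlapped on opposite strands in 75 of the 153 whole-cell pairs, 5 of the 6 cytosolic pairs and 8 of the 12 mitochondrial pairs.

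**Figure D3:**
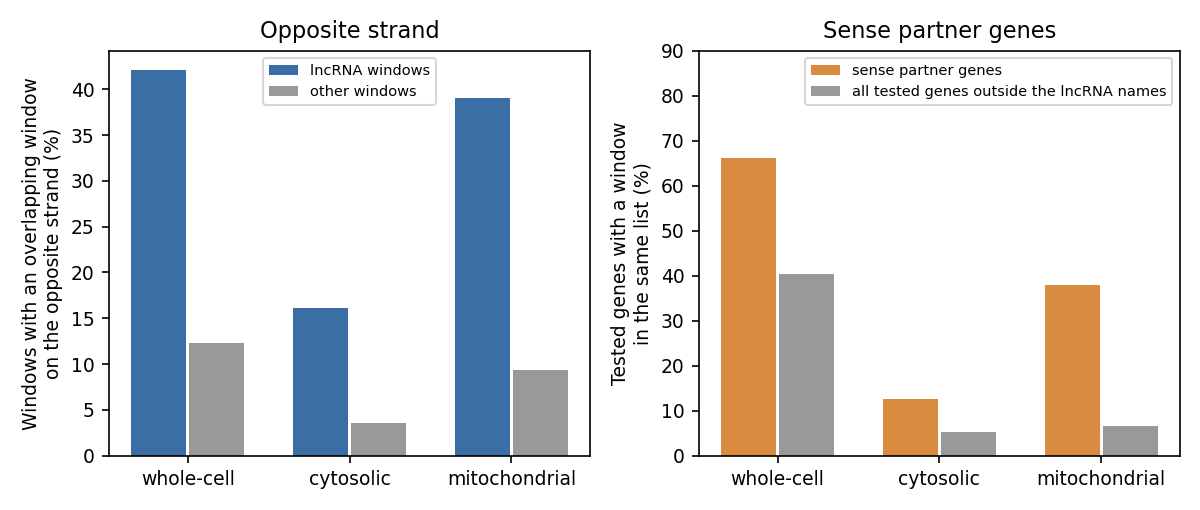
Left, share of windows (vertical axis, %) that overlap a listed window on the opposite strand, for lncRNA windows and all others in each list. Right, share of tested genes (vertical axis, %) with a window in the same list, for the sense partners of the lncRNA genes and for all tested genes outside the lncRNA names. The lncRNA and partner bars are the taller ones in every list, at 42.1% against 12.3% and 66.1% against 40.3% in whole cells.

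The siRNA experiment asked which of these RNAs change when hnRNPA1 is reduced. The gene values are normalised reads, not divided by transcript length, and estimated read totals ranged from 16610000 to 22050000 per library. HNRNPA1 itself had 18640, 20400, 18610 and 19350 normalised reads in the control libraries and 6506, 6413, 7185 and 5306 in the hnRNPA1 siRNA libraries. The groups did not overlap, and the log2 fold change was -1.61 (SE 0.09, adjusted p = 2.2e-06, limma). All 5 HEK293 markers examined were present, with summed values of 5350 to 6663 in control and 5239 to 6382 in knockdown libraries. Of the 13 marker genes of fibroblasts, endothelium and lymphocytes, 4 were in the table, with summed values of 79.9 to 105, 15.9 to 26.6 and 8.88 to 12.2 in control libraries and of 66.8 to 102, 8.65 to 18.7 and 8.51 to 11.9 in knockdown libraries. In bulk RNA fewer cells of a kind and less RNA per cell cannot be told apart.

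Many of the lncRNA genes could not be followed in this experiment. The table held 152 of the 295 whole-cell lncRNA genes (51.5%), 28 of 58 cytosolic (48.3%) and 14 of 35 mitochondrial ones (40.0%), against 88.7%, 62.9% and 85.5% of the other genes with a window. In all 179 of the 352 genes were in the table and 162 reached the minimum of 10 normalised reads in 4 libraries. The median of their mean values was 74.8, against 27.7 for the 611 tested genes of the same kinds of name without a window and 328 for all 15267 tested genes. These values are not per length, so they show read support and not an order of RNA amounts. The other 190 genes were absent or too low and have no knockdown value. They include RNF185-AS1, LINC00486 and COL4A2-AS2.

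Knockdown of hnRNPA1 changed few of these RNAs. Of the 162 tested, 3 (1.85%) rose and none fell at an adjusted p under 0.05, and 18 (11.1%) had an unadjusted p under 0.05. Over all 15267 tested genes 1.65% were called, 0.675% higher and 0.976% lower, and 19.2% had an unadjusted p under 0.05. The median log2 fold change was -0.01 for the lncRNA genes and 0.00 for all genes, and 72 of the 162 were above 0. The control and knockdown libraries did not overlap for 14 of the 162 (8.64%), against 11.6% of all tested genes. The share called was thus near the background, and the share at an unadjusted p under 0.05 was below it, in genes whose read support was also below that of all genes. The part of read support in this was not tested. These counts come from a fit without the replicate numbers. With replicate number added as a block, 1191 of all tested genes were called. More of the lncRNA genes were called too, but a smaller share of them than of all tested genes, as given at the end. The statement that the share called was near the background thus holds for the fit without the block.

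By list, 1 of 140 whole-cell, 1 of 24 cytosolic and 2 of 12 mitochondrial lncRNA genes rose. IRS4-AS1 counted under the last 2. By class, 2 of 105 antisense and 1 of 31 divergent genes rose, and of 25 LINC genes limma called 0, with 0 at an unadjusted p under 0.05. Of the 34 genes with windows in 2 or 3 lists, 14 were tested and 1, IRS4-AS1, rose, with log2 fold changes from -0.30 to 0.62. PAXBP1-AS1, listed in the cytosol and in mitochondria, had one of 0.39 (adjusted p = 0.18). Of 13 tested transcripts named for zinc finger genes 0 were called by limma, and 2 had an unadjusted p under 0.05. LncRNA genes of the same kinds of name without a window gave 5 calls of 611 (0.818%), of which ZNF528-AS1, CD2BP2-DT and MOCS2-DT rose and SNTG2-AS1 and TMEM161B-DT fell.

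**Figure D4:**
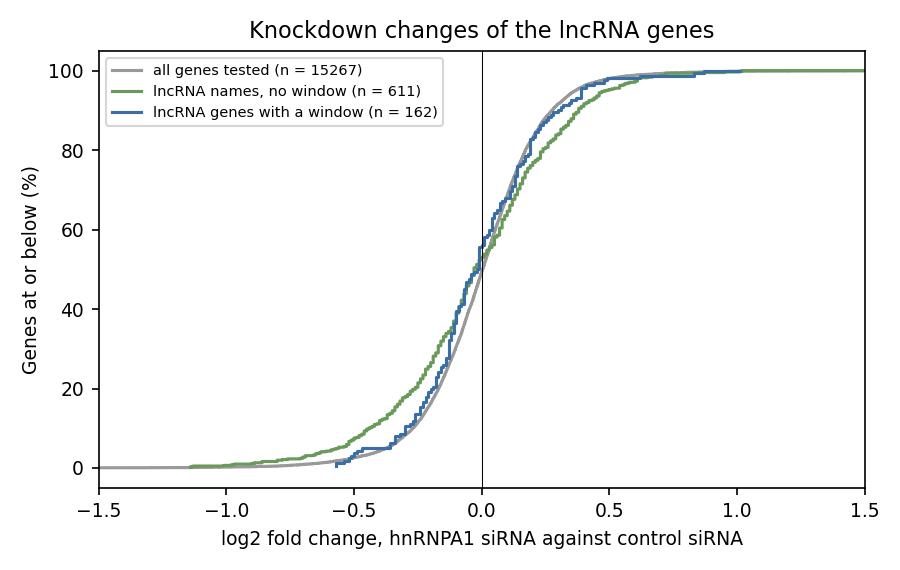
Cumulative share of genes (vertical axis, %) at or below each log2 fold change of hnRNPA1 siRNA against control siRNA (horizontal axis) for 162 lncRNA genes with a window, 611 of the same names without a window and all 15267 tested genes. The 3 curves cross near 0, and the curve of the lncRNA genes without a window is the widest.

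TNS2-AS1, antisense to the focal adhesion gene TNS2, had a mitochondrial window with a signal of 0.99 (chr12:53040097-53040596, minus strand). Its normalised reads were 51.2, 36.6, 60.9 and 53.9 in the control libraries and 84.1, 78.9, 106 and 102 after hnRNPA1 siRNA. Every knockdown library was above every control library. The means were 50.7 ± 10.2 and 92.5 ± 13.1 (SD, n = 4 each), a log2 fold change of 0.87 (SE 0.18, limma adjusted p = 0.031). TNS2 itself had a log2 fold change of 0.39 (adjusted p = 0.36).

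IRS4-AS1 was listed in mitochondria, just ahead of its annotated start, and in the cytosol with a signal of 0.77 (chrX:108738512-108739011). Its normalised reads were 228, 144, 188 and 145 with control siRNA and 257, 245, 295 and 273 with hnRNPA1 siRNA. The knockdown libraries were all higher, by the least over control library 1. The means were 176 ± 40.1 and 267 ± 21.3 (SD, n = 4 each), a log2 fold change of 0.62 (SE 0.14, limma adjusted p = 0.047). IRS4, an abundant adaptor of insulin signalling in HEK293 cells, had mean values of 32930 (control) and 33250 (knockdown), with a log2 fold change of 0.01 (adjusted p = 0.98) whose sign changed in 4 of 12 alternative settings.

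These 3 calls depended on single libraries. Without any 1 of control libraries 2 and 4 or knockdown libraries 2, 3 and 4, limma called 0 of the 162 genes. Without control library 1 it called IRS4-AS1, and without control library 3 TNS2-AS1. Without knockdown library 1 it called 3, among them TNS2-AS1 and ADGRL1-AS1 but not IRS4-AS1. The all-gene count in the same fits ranged from 61 to 254, from 252 with all libraries. The log2 fold changes stayed between 0.72 and 0.96 for TNS2-AS1. With libraries centred on their medians the adjusted p of IRS4-AS1 was 0.052.

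**Figure D5:**
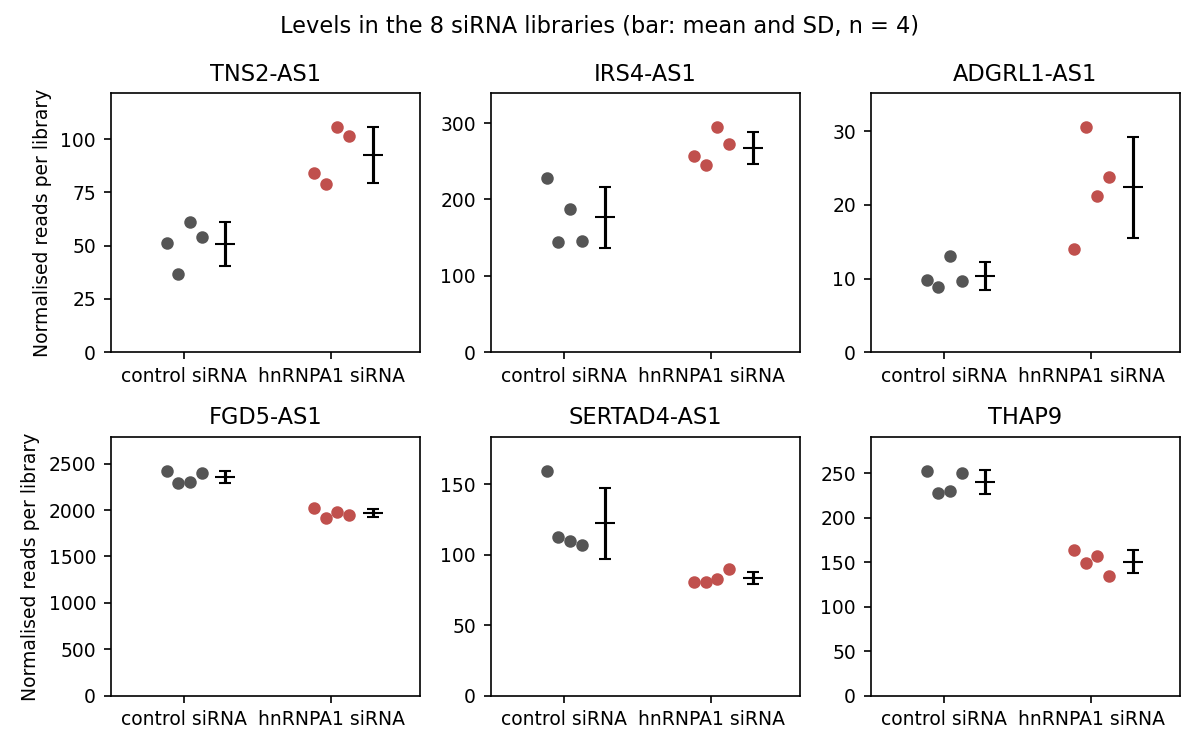
Normalised reads (vertical axis, from 0) of 6 genes in the 4 control siRNA and 4 hnRNPA1 siRNA libraries, each point 1 library, with the mean and SD beside them. In each panel the groups do not overlap, with TNS2-AS1, IRS4-AS1 and ADGRL1-AS1 higher and FGD5-AS1, SERTAD4-AS1 and THAP9 lower after hnRNPA1 siRNA. Of these, TNS2-AS1, IRS4-AS1 and THAP9 passed the test.

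The genes next in order of p did not pass the test and moved in both directions. FGD5-AS1, a widely expressed antisense RNA with 2 whole-cell windows, had 2424, 2296, 2304 and 2398 normalised reads with control siRNA and 2021, 1917, 1983 and 1948 with hnRNPA1 siRNA. No value was shared between the groups, and the difference was small, with means of 2356 ± 64.8 and 1967 ± 44.8 (SD, n = 4 each), a log2 fold change of -0.26 (SE 0.06, adjusted p = 0.054). ZNF45-AS1 had a log2 fold change of 0.83 (adjusted p = 0.069) from a control mean of 19.8 ± 3.81 to 35.8 ± 5.87. ADGRL1-AS1, antisense to the adhesion receptor gene ADGRL1 and listed with 2 adjoining mitochondrial windows, had 9.84, 8.88, 13.1 and 9.63 normalised reads with control siRNA and 14.01, 30.6, 21.3 and 23.8 with hnRNPA1 siRNA. The lowest knockdown value was just above the highest control, and the log2 fold change was 1.01 (SE 0.28, adjusted p = 0.080).

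SERTAD4-AS1, whose whole-cell window with a signal of 2.43 faced a window of SERTAD4, had 159, 112, 110 and 107 normalised reads with control siRNA and 80.8, 80.8, 82.6 and 89.8 with hnRNPA1 siRNA. Control library 1 was far above the other controls, and the groups did not overlap. The log2 fold change was -0.52 (adjusted p = 0.082). TMEM147-AS1, with 4 whole-cell windows and 1 mitochondrial window, had a log2 fold change of -0.30 (adjusted p = 0.097), and ALOX12-AS1 one of -0.57 (adjusted p = 0.11). Those of ZNF567-DT (0.34, adjusted p = 0.14) and LOXL1-AS1 (0.27, adjusted p = 0.16) were above 0. Each of these 4 also had groups that did not overlap.

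The lncRNA genes with the most read support had no call. After FGD5-AS1 they were OIP5-AS1, LINC00662, LINC02693 and MAGI2-AS3. OIP5-AS1, a conserved cytoplasmic lncRNA also called cyrano, had 3 whole-cell windows with signals of 1.54, 1.05 and 0.91. It had 2078, 1894, 2104 and 2018 normalised reads with control siRNA and 2304, 1893, 2327 and 2270 with hnRNPA1 siRNA. Knockdown library 2 was as low as the lowest control while the other 3 were above all controls, and the log2 fold change was 0.12 (adjusted p = 0.46). LINC00662 and LINC02693 had log2 fold changes of -0.01 and 0.04, whose signs turned when single libraries were left out. MAGI2-AS3 had one of 0.16 (adjusted p = 0.45).

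Of the genes with the highest signal or most windows, CCDC18-AS1 had a log2 fold change of -0.13 (adjusted p = 0.74), LINC00324 of -0.24 (adjusted p = 0.45), ENTPD1-AS1 of 0.01 (adjusted p = 0.96) and HOXA-AS3 of -0.15 (adjusted p = 0.52). The control and knockdown libraries overlapped in all 4. BTG1-DT fell short of the minimum for testing: it had 9.84, 8.88, 10.3 and 8.66 normalised reads with control siRNA and 6.47, 6.90, 5.11 and 5.41 with hnRNPA1 siRNA. The groups were apart, at values where a few reads make up the difference. BTG1 had a log2 fold change of -0.13 (adjusted p = 0.38).

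The sense partners gave 3 calls of 268 tested (1.12%), 1 higher and 2 lower, with a median log2 fold change of 0.00. THAP9, a gene derived from a DNA transposase, fell. It had 253, 228, 231 and 250 normalised reads with control siRNA and 164, 149, 157 and 134 with hnRNPA1 siRNA. The groups were far apart, and the log2 fold change was -0.67 (SE 0.10, limma adjusted p = 0.0072). THAP9-AS1, with a whole-cell window at a signal of 0.76, had a log2 fold change of -0.22 (adjusted p = 0.27). PCMTD1, related to enzymes that repair damaged aspartate residues in proteins, also fell, from 613 ± 46.7 to 463 ± 46.9 (SD, n = 4 each), with a log2 fold change of -0.41 (SE 0.09, limma adjusted p = 0.044). PCMTD1-DT had one of 0.18 (adjusted p = 0.64). The call of THAP9 was kept in all 12 alternative settings, and that of PCMTD1 was lost in 6, each time on leaving out a library. Across the 126 pairs with both members tested, lncRNA and partner had changes of the same sign in 62 (49.2%). The Pearson correlation of the log2 fold changes across pairs was 0.171 and the Spearman correlation 0.109, over pairs that share the same 8 libraries. A list of lncRNA genes mostly with other kinds of name, such as the small nucleolar RNA host genes, NEAT1 and MALAT1, gave 1 call of 69 tested (1.45%). It also holds OIP5-AS1 and EPB41L4A-AS1. The call was SNHG19, which fell by 0.57 on the log2 scale (limma adjusted p = 0.044). An unadjusted p under 0.05 was found for 18 of the 69 (26.1%), 3 higher and 15 lower, against 19.2% of all tested genes. The difference was not tested.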

How the data were processed

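Per the labels' protocols, RNA bound to hnRNPA1 antibody or IgG beads and Trizol RNA of siRNA-treated cells were made into stranded total RNA libraries. The authors deposited 3 peak lists with a signal score, p-value and q-value per 500-base window; no source used here gives the caller's version, the build or the background library. The window starts were read as counted from 0 and are given from 1. Of windows with a RefSeq symbol, 88.0% lay within 500 bases of that gene's GRCh38.p14 span, so the lists were read as that build. Windows were matched by gene ID, and overlaps on the same strand were checked with bedtools 2.31.1.

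The authors deposited the siRNA gene values as a normalised signal. The submitters' processing notes name STAR 2.7.8a, Partek and DESeq2 and the build hg38, without saying what each did. Within a tolerance of 0.02, 83.1% to 85.2% of values from 0.5 to 20 were whole multiples of 1 step per library, too few for count data. Estimated reads come from this step. The table has 16384 lines, a spreadsheet limit, and may be cut off; 4 whole-cell lncRNA genes have IDs after its last. Genes with at least 10 in 4 or more libraries (15267 of 16382) were tested with limma 3.58.1 in R 4.3.3, with a variance trend, on log2(value + 1), with Benjamini-Hochberg adjustment over all of them. Fold changes are on this scale, which understates the change of low genes. The fit was tested on simulated data.

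The members and lists were chosen with earlier results of these data known. Named were HNRNPA1, genes in 2 or more lists, the 5 highest signals per list, the genes with most whole-cell windows, and, in the knockdown, the 5 highest means, the called genes, the 10 smallest p-values and the partners, from which a selection is given. The IT, OT, BTG1-DT, LINC01138, LINC03057 and LINC00987 windows were named after their values were seen. Some named genes are not reported here.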

Additional observations from a re-analysis of the deposited data

Results flagged for a closer look

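In 5 of 46 groups of 4 libraries, among the genes named, 1 library stood apart: its gap to the nearest of the others, as a share of the group's range, was above Dixon's critical value. Chance flags about 1 in 20 groups. For SERTAD4-AS1 control library 1 was the highest, with a share of 0.90. For ALOX12-AS1 control library 1 was the lowest (0.85). For TMEM147-AS1 knockdown library 2 was the highest (0.922), and it was the lowest for OIP5-AS1 (0.868). For PCMTD1 knockdown library 1 was the highest (0.883).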

How the results depend on the processing

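Each count of windows fell under a stricter threshold, by an amount that differed among the lists. A cut at the median signal of the list removes a large part of any list by design. With signal above it, 206 windows in 190 genes were left in whole cells, 34 in 33 in the cytosol and 19 in 16 in mitochondria. At a q of at most 0.005, 289 of the 406 windows were left in whole cells. In the cytosol 14 windows in 14 genes (2.28% of the list) were left, and in mitochondria 25 in 22. Matching by gene symbol gave 13, 19 and 6 shared. Leaving out a library gave 61 to 254 calls over all genes, 0 to 3 among lncRNA genes with a window and 1 to 4 among sense partners. Same-numbered control and knockdown libraries had deviations that correlated at 0.119, 0.292, 0.0431 and 0.234, so the numbers were not taken as pairs; samples 1 and 2 of each arm correlated best with their own number, and 3 of each arm did not. A replicate block gave 1191 calls among all 15267 tested genes, 7 among 162 lncRNA genes with a window and 23 among 268 sense partners. With this block FGD5-AS1 (limma adjusted p = 0.022), ZNF45-AS1, SERTAD4-AS1 and TMEM147-AS1 passed. ADGRL1-AS1 passed without knockdown library 1 (1.20, adjusted p = 0.046). Over libraries left out, the log2 fold change of LINC00662 ranged from -0.16 to 0.08 and turned to 0.05, 0.08 and 0.08 without control 1, control 3 or knockdown 1. That of LINC02693 ranged from -0.02 to 0.09 and turned to -0.02 and -0.01 without control 1 or knockdown 4. That of IRS4 ranged from -0.07 to 0.07 and turned to -0.01 with centred libraries and to -0.05, -0.07 and -0.03 without control 1, knockdown 1 or knockdown 2. The cause was not tested. A pseudocount of 0.1 and no filter changed no call named. The lists have no depth or replicates, which limits every statement on windows.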
